A study of Mus musculus with 72 samples.

Results

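Livers of SIRT1 knockout and wild-type mice were compared at the moment of lights off. The comparison used 6 of the 72 arrays of the series, 3 labelled WT and 3 labelled SIRT1 KO, all taken at zeitgeber time 12 (ZT12, 12 h after lights on) and chosen by their titles. Both groups were C57BL/6 mice under 12 h of light and 12 h of dark, and the KO animals were liver-specific SIRT1 knockouts. The labels name neither the promoter that drove the deletion nor the age or sex of the mice. Total RNA of flash-frozen liver was hybridised to single-colour Affymetrix arrays. The same cohort held 30 arrays at the other 5 times (ZT0, 4, 8, 16 and 20), and a second cohort, labelled 129 mixed, held 6 arrays of SIRT6 liver-specific knockout and WT livers at ZT12. Nothing in the labels states that the replicates of a group were separate mice. The p-values and standard errors therefore reflect a spread among replicate arrays that may be technical. This spread was pooled over the 12 groups and 36 arrays of the cohort, and was not that of the ZT12 arrays alone.

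SIRT1 is a deacetylase that uses NAD+ as cosubstrate and acts on histones, on components of the clock and on metabolic regulators such as PGC-1alpha and the SREBP proteins. In the liver of a nocturnal mouse, lights off is the turn from fasting to feeding. Cholesterol and fatty acid synthesis genes are known to be induced with feeding, PPARA targets of fatty acid oxidation to recede, and the clock activator Arntl to begin its nightly rise.

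The arrays were first checked against their labels. All values are log2(intensity + 16), a scale that understates changes of dim genes. The Sirt1 probe set read 8.83, 8.76 and 8.88 in WT and 8.80, 8.83 and 8.94 in KO livers. These values overlapped, and the difference of 0.03 ± 0.09 (SE, n = 3 against 3) did not pass the test (limma adjusted p = 0.945). The position of the probes relative to the deletion is unknown here. Probes outside the deletion check nothing, and these values do not show a loss of Sirt1 transcript. Of the 7 sirtuins, 0 passed the test. The mitochondrial Sirt3 (difference 0.08 ± 0.09) was the 1 whose KO values all lay above WT, as they did in 9.24% of all genes. Its lowest KO value and its highest WT value were both 10.62 after rounding. Over the other 5 times its difference averaged 0.14.

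The 6 arrays had median intensities of 66.5 to 69.1, and 0 pairs were identical. Within WT the pairwise correlations ran from 0.985 to 0.988 and within KO from 0.977 to 0.984, so the KO livers differed more among themselves. The 11 hepatocyte markers measured summed to intensities of 63851 to 67091 in WT and 66717 to 67945 in KO. The 13 Kupffer cell markers all had a lower mean in KO (median difference −0.26, and −0.56 without KO replicate 1). In each of them the groups overlapped, and 0 had unadjusted p under 0.05. Their mean read 8.44, 7.70 and 8.86 in WT and 8.57, 8.34 and 7.19 in KO, so only KO replicate 3 lay below the WT range. Their sums were 2796 to 6738 in WT and 1879 to 5228 in KO. Of 12 sinusoidal endothelial markers 11 had a lower mean in KO, with sums of 8419 to 8978 in WT and 5652 to 10309 in KO, the lowest being KO replicate 3. In whole liver, fewer cells of a type and less RNA per cell cannot be told apart. The markers of pancreas, muscle, neutrophils, and kidney and gut lay mostly below the filter on dim genes. The kidney and gut markers summed to 882 to 1262 in WT and 586 to 754 in KO, without overlap, and the 1 of them above the filter was Fabp2, described with the PPARA targets. Neutrophil markers, 8 of 10 below the filter, summed to 358.9 to 378.3 in WT and 339.7 to 354.5 in KO, also without overlap.

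At lights off, 2 of 13308 genes passed the test (limma, Benjamini-Hochberg adjusted p under 0.05), or 0.015%, and both were higher in the KO livers. They were Endog, the mitochondrial endonuclease G, and Celsr1, a large cadherin receptor of planar cell polarity. Before adjustment, 1261 genes (9.48%) had p under 0.05, of which 845 (6.35% of all) had a higher mean in KO and 416 (3.13%) a lower mean. A higher mean in KO was found in 56.8% of all genes (51.1% after quantile normalization) and a lower mean in 43.2%. The median difference over all genes was 0.03.

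Endog read 8.55, 8.84 and 8.94 in WT and 9.22, 9.45 and 9.37 in KO livers at ZT12. The groups did not overlap: the lowest KO value lay above the highest WT value. The rise was 0.57 ± 0.10 (SE), or 1.49-fold (limma adjusted p = 0.027). In WT livers Endog stood at 8.63 ± 0.03 (SD, n = 3) at ZT8 and 9.25 ± 0.09 at ZT16, so the KO mean at ZT12, 9.35 ± 0.12, was near the WT level of 4 h later. Its difference at ZT12 exceeded the mean difference of the other 5 times (0.12 ± 0.04) by 0.46, which did not pass its own test (limma adjusted p = 0.208).

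Celsr1 read 7.43, 7.40 and 7.06 in WT and 8.68, 8.72 and 8.04 in KO livers. Again every KO value lay above every WT value, with KO replicate 3 the lowest of the KO group. The rise was 1.18 ± 0.21 or 2.27-fold (limma adjusted p = 0.027). WT livers read 7.06 ± 0.26 at ZT8 and 8.79 ± 0.37 at ZT16, so in WT this gene lay low around lights off and high 4 h later, and the KO mean at ZT12 (8.48 ± 0.38) lay between those levels. The excess over the other 5 times was 1.03 (limma adjusted p = 0.202).

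Both calls depended on single arrays. Without WT replicate 1, or without KO replicate 2, 0 genes passed. Without WT replicate 2, WT replicate 3 or KO replicate 3, 3, 1 and 2 genes passed. Endog but not Celsr1 passed without WT replicate 2 and without WT replicate 3. Celsr1 but not Endog passed without KO replicate 3. Without KO replicate 1, 69 passed, among them Endog and Celsr1.

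The promoter of Endog is shown because this gene had the smallest p, and that of Insig1, which did not pass, because it had the smallest p of the cholesterol genes described further on. Both come from RefSeq (GRCm38.p6), run 5′ to 3′ on the + strand from 250 bases before to 50 after the annotated start, and lie at chr2:30171274-30171573 and chr5:28071162-28071461. Capitals mark a CCAAT match in Endog and a CACGTG match (E-box) in Insig1.
Endog: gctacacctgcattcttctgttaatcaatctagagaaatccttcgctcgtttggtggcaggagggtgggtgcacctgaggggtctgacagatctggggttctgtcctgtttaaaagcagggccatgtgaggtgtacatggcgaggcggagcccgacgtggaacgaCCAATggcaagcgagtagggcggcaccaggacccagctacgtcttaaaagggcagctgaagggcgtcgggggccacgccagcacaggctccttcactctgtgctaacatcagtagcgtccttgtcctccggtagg
Insig1: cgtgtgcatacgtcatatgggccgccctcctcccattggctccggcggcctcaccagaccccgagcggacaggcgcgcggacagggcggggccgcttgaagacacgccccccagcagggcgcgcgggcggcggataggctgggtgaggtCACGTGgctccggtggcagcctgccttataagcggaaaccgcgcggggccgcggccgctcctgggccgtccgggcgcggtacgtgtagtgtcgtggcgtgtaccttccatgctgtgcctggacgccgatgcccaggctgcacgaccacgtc
On either strand, CCAAT is found in 37.41% and CACGTG in 7.15% of 32851 such promoters. Among genes with unadjusted p under 0.05 that have a promoter entry, CACGTG was present in 11.62% of 680 higher genes and 13.89% of 324 lower genes, against 11.4% of all 10455 tested genes with an entry. CCAAT was present in 46.18%, 41.05% and 41.69% of the same 3 groups. Genes are counted as holding a motif where any of their start sites does, and 138 of the 166 genes that the naming rule picked had an entry.

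**Figure D1:**
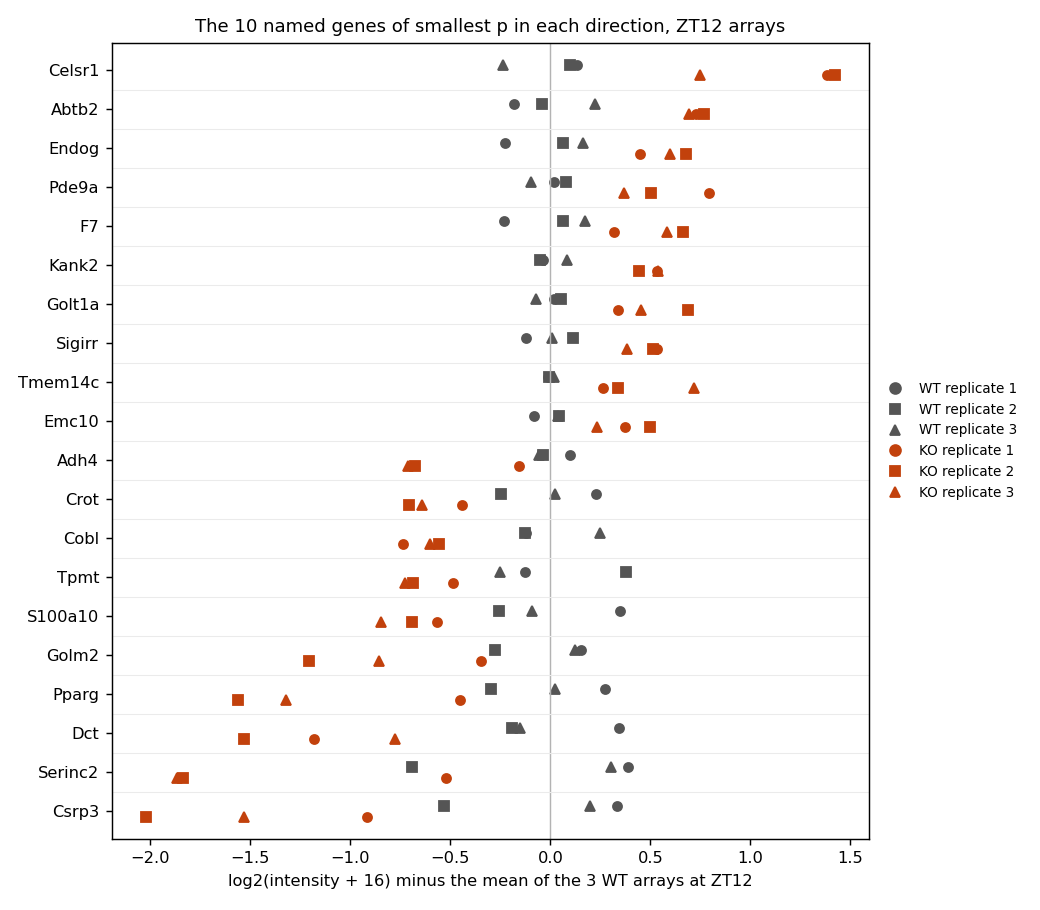
Values of the 6 arrays at ZT12 for the 10 named genes of smallest p in each direction (predicted genes are left out), as log2(intensity + 16) minus the mean of the 3 WT arrays (x axis); grey marks are WT, orange marks KO, and the shape gives the replicate. Endog and Celsr1 passed the test; the other genes are shown by the rank of their p and did not.

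Next in order of p among genes with a higher mean in KO were 8 genes that did not pass. Kank2, a regulator of actin at focal adhesions, read 7.86, 7.84 and 7.98 in WT and 8.43, 8.34 and 8.43 in KO (difference 0.51 ± 0.10, adjusted p = 0.075). Sigirr, an inhibitory member of the interleukin 1 receptor family, read 7.85, 8.09 and 7.98 against 8.50, 8.48 and 8.36 (0.48 ± 0.10, adjusted p = 0.075). Pde9a, a phosphodiesterase specific for cyclic GMP, read 8.26, 8.32 and 8.15 against 9.04, 8.74 and 8.61 (0.55 ± 0.11, adjusted p = 0.075). In all 3 the KO values lay above the WT values by more than the range within WT. The clotting factor F7 differed by 0.52 ± 0.11, the membrane protein insertase subunit Emc10 by 0.37 ± 0.08, the mitochondrial Tmem14c, known from heme synthesis, by 0.44 ± 0.10, Abtb2 by 0.73 ± 0.17 and Golt1a by 0.49 ± 0.11, with adjusted p from 0.119 to 0.144. None of these 8 overlapped between the groups, which 9.24% of all genes share in that direction.

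Among genes with a lower mean in KO, 0 passed. The smallest p belonged to Crot, the peroxisomal carnitine octanoyltransferase that hands shortened fatty acids to mitochondria. Crot read 11.64, 11.17 and 11.44 in WT and 10.97, 10.71 and 10.78 in KO livers. The groups did not overlap, and the difference was −0.60 ± 0.11 (adjusted p = 0.052). Crot reached its lowest mean at ZT16 in WT (11.16 ± 0.18) and at ZT12 in KO (10.82 ± 0.14). A predicted gene counted here but not named differed by −2.11 (adjusted p = 0.075).

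The others were the thiopurine methyltransferase Tpmt (−0.63 ± 0.14), the annexin partner S100a10 (−0.70 ± 0.16), the alcohol dehydrogenase Adh4 (−0.52 ± 0.12), the actin nucleator Cobl (−0.63 ± 0.16), the melanin enzyme Dct (−1.16 ± 0.26), Golm2 (−0.81 ± 0.21), the muscle LIM protein Csrp3 (−1.49 ± 0.38), the lipid-storage receptor Pparg (−1.11 ± 0.29) and Serinc2 (−1.41 ± 0.37). Their adjusted p ran from 0.139 to 0.205. Pparg read 8.92, 8.34 and 8.67 in WT and 8.19, 7.08 and 7.32 in KO livers. In Pparg, Csrp3, Golm2 and Serinc2, KO replicate 1 stood nearest to the WT livers, and in Serinc2 it lay inside their range. KO values all below WT were found for 4.25% of all genes.

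Gene groups of liver metabolism are given next by counts and medians, to be read against 56.8% higher and 43.2% lower means, a median of 0.03, and unadjusted p under 0.05 in 6.35% of all genes as higher and 3.13% as lower. Of the members of these groups, 0 passed the test at ZT12. The KO values lay all above WT in 9.24% of all genes and all below in 4.25%. The medians given kept their sign after quantile normalization and after centring of the arrays. Among 19 genes of cholesterol synthesis and its SREBP2 control, 15 had a higher mean in KO, 6 with unadjusted p under 0.05 and 0 lower ones. Their median difference was 0.17 at ZT12 and −0.08 as the mean of the other 5 times. By array, the mean of the list read 9.89, 10.12 and 10.10 in WT and 10.19, 10.21 and 10.26 in KO, without overlap. Insig1, the sterol sensor partner that retains SREBP in the endoplasmic reticulum, read 11.37, 11.69 and 11.42 in WT and 12.07, 11.90 and 11.97 in KO (0.49 ± 0.11, adjusted p = 0.157). Its KO values all lay above WT, and in WT livers it reached 11.99 ± 0.28 at ZT16. The synthesis enzymes Lss (0.65 ± 0.18, adjusted p = 0.245), Dhcr7 (0.50 ± 0.14, adjusted p = 0.245) and Ebp (0.30 ± 0.07, adjusted p = 0.176) also had no overlap, whereas Hmgcs1, at the head of the pathway, differed by −0.23 ± 0.18.

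Among 23 lipogenic genes of SREBP1 and ChREBP, 19 had a higher mean in KO (median 0.11, against 0.01 over the other 5 times), 4 with unadjusted p under 0.05 and 1 lower one. By array, the mean of the list read 10.62, 10.94 and 10.75 in WT and 11.17, 10.64 and 10.71 in KO. Only KO replicate 1 lay above the WT range, and KO replicates 2 and 3 lay inside it. Acly, which makes the acetyl-CoA for fatty acid synthesis, read 10.16, 10.68 and 10.28 in WT and 11.27, 11.38 and 11.44 in KO (0.99 ± 0.26, or 1.99-fold, adjusted p = 0.205). The groups did not overlap, and the difference at the other 5 times averaged 0.01 ± 0.12. Replicates of Acly can spread widely: WT livers ran from 10.33 to 11.26 at ZT8 and from 10.77 to 11.97 at ZT20. Fatty acid synthase, Fasn, read 10.86, 11.55 and 10.93 against 12.42, 11.66 and 11.69 (0.81 ± 0.21, adjusted p = 0.205). Here WT replicate 2 came close to KO replicates 2 and 3, without reaching them.

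The balance was the other way in fatty acid oxidation. Of 32 PPARA targets and oxidation genes, 24 had a lower mean in KO, 8 with unadjusted p under 0.05 and 0 higher ones. The median was −0.18 at ZT12 and −0.02 over the other 5 times. By array, the mean of the list read 10.04, 9.67 and 9.99 in WT and 9.87, 9.42 and 9.62 in KO, so the groups overlapped. Fabp2, a fatty acid carrier, read 10.07, 9.51 and 9.51 in WT and 9.14, 8.43 and 9.02 in KO (−0.83 ± 0.24, adjusted p = 0.245). Fabp2 is also on the kidney and gut marker list, whose other 6 measured members lay below the filter; the part of such cells in this value was not tested. The Fabp2 groups did not overlap, while those of the pantetheinase Vnn1 did: 9.41, 7.07 and 9.12 in WT against 7.19, 5.38 and 5.73 in KO (−2.43 ± 0.70, adjusted p = 0.245). The thioesterase Acot2 differed by −0.75 ± 0.27 and the dehydrogenase Acadm by −0.16 ± 0.07. The receptor gene Ppara itself differed by −0.30 ± 0.13 (adjusted p = 0.458), and the rate-controlling Cpt1a by −0.03 ± 0.09.

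Amino acid breakdown and urea cycle genes had 27 of 33 members higher in KO, 12 with unadjusted p under 0.05 and 2 lower ones, with a median of 0.19 at ZT12 and −0.06 over the other 5 times. By array, the mean of the list read 11.11, 11.17 and 11.20 in WT and 11.19, 11.48 and 11.42 in KO, so KO replicate 1 lay inside the WT range. Uroc1, an enzyme of histidine breakdown, read 10.70, 10.78 and 10.70 in WT and 11.01, 11.47 and 11.37 in KO (0.56 ± 0.15, adjusted p = 0.215). Ddc, the aromatic amino acid decarboxylase, differed by 0.54 ± 0.15, the glycine cleavage enzyme Gldc by 0.57 ± 0.16 and the urea cycle enzyme Asl by 0.40 ± 0.14, all without overlap. In Uroc1 and Gldc, KO replicate 1 was the KO array nearest to WT.

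Zonation genes differ in level along the liver lobule. Of 11 pericentral genes, expressed around the central vein, 10 had a lower mean in KO (median −0.14, against 0.10 over the other 5 times), 3 with unadjusted p under 0.05. Of 8 periportal genes 5 had a higher mean (median 0.17, against −0.08), a share near that of all genes, 2 with unadjusted p under 0.05. Both, Hal and Arg1, are also members of the amino acid list, and Alb, Cyp2f2 and Pck1 had a lower mean. The ammonium transporter Rhbg read 8.50, 8.76 and 9.07 in WT and 8.16, 8.27 and 8.01 in KO (−0.63 ± 0.30, adjusted p = 0.507). Glutamine synthetase, Glul, differed by −0.31 ± 0.15 and Cyp2e1 by −0.15 ± 0.06, and on the periportal side the histidase Hal by 0.40 ± 0.15 and arginase, Arg1, by 0.28 ± 0.10. Hal, Arg1, Rhbg and Cyp2e1 had no overlap; in Glul, KO replicate 1 lay inside the WT range.

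NAD metabolism, which supplies the cosubstrate of SIRT1, had 12 of 19 members higher in KO (median 0.14, against −0.07 over the other 5 times), 6 with unadjusted p under 0.05 and 0 lower ones. Qprt, which forms NAD precursors from tryptophan, read 10.49, 10.69 and 10.66 in WT and 10.83, 11.24 and 11.10 in KO (0.44 ± 0.11, adjusted p = 0.176), with no overlap. Acmsd, which diverts the same pathway away from NAD, read 8.95, 8.77 and 9.32 against 9.30, 11.41 and 10.77 (1.48 ± 0.45, adjusted p = 0.277). In Acmsd, KO replicates 2 and 3 were far above the WT livers and KO replicate 1 lay among them.

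Of 22 bile acid genes 17 had a lower mean in KO (median −0.14), 4 with unadjusted p under 0.05 against 2 higher ones. The phospholipid pump Abcb4 differed by −0.35 ± 0.11, the uptake carrier Slco1b2 by −0.36 ± 0.13 and the repressor Nr0b2 by −0.69 ± 0.27, whereas the receptor Fgfr4 differed by 0.42 ± 0.12 (adjusted p from 0.245 to 0.400). Cyp7a1, the rate-limiting enzyme of bile acid synthesis, differed by −0.17 (adjusted p = 0.91). Of 37 xenobiotic receptor targets 22 had a lower mean, 7 with unadjusted p under 0.05 against 4 higher ones. The carboxylesterase Ces1g read 11.12, 11.03 and 10.09 in WT and 9.34, 8.59 and 8.60 in KO (−1.91 ± 0.55, adjusted p = 0.245), with no overlap, while Cyp2c55 differed by 0.97 ± 0.26.

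Of 29 growth hormone and sex-biased liver genes 21 had a lower mean in KO (median −0.10), 4 with unadjusted p under 0.05 against 1 higher one. The list was not split by the direction of the sex bias, so its count and median have no single reading. The steroid enzyme Hsd3b5 differed by −0.87 ± 0.33, Cyp2d9 by −0.71 ± 0.26 and the transporter Slco1a1 by −0.89 ± 0.32, whereas Cyp2a4 differed by 0.93 ± 0.43. Cyp4a12b differed by −0.49 ± 0.22, Acot3 by −1.02 ± 0.53 and Cyp2b9 by −0.42 ± 0.22. Slco1a1 read 11.87, 11.93 and 11.66 in WT and 11.74, 9.62 and 11.43 in KO, so the difference rested largely on KO replicate 2. Of 31 respiratory chain genes 26 had a higher mean in KO by small amounts (median 0.06), 4 with unadjusted p under 0.05, among them Uqcrfs1 at 0.25 ± 0.09.

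Of 20 heat shock chaperones 16 had a higher mean in KO, 5 with unadjusted p under 0.05; the median of 0.19 became 0.04 without KO replicate 1. The HSP90 cochaperone Ahsa1 read 9.31, 9.37 and 9.46 in WT and 9.65, 9.72 and 9.57 in KO (0.27 ± 0.08, adjusted p = 0.277), with no overlap. Iron and BMP-SMAD genes had 12 of 18 members higher (median 0.07, and −0.12 without KO replicate 1). The hepcidin relative Hamp2 read 5.75, 8.03 and 8.19 in WT and 8.19, 10.42 and 9.67 in KO (2.10 ± 0.68, adjusted p = 0.300), the lowest KO value being level with the highest WT value. Of 17 glucocorticoid responsive genes 12 were higher (median 0.19), but the largest difference, in the estrogen sulfotransferase Sult1e1, came from 1 array: KO replicate 2 read 12.79, and the other 5 arrays 5.74 to 6.60. Of 30 acute phase and NF-kB genes 18 and of 27 interferon-stimulated genes 21 had a higher mean, with 6 and 1 higher at unadjusted p under 0.05 and 2 and 0 lower.

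**Figure D2:**
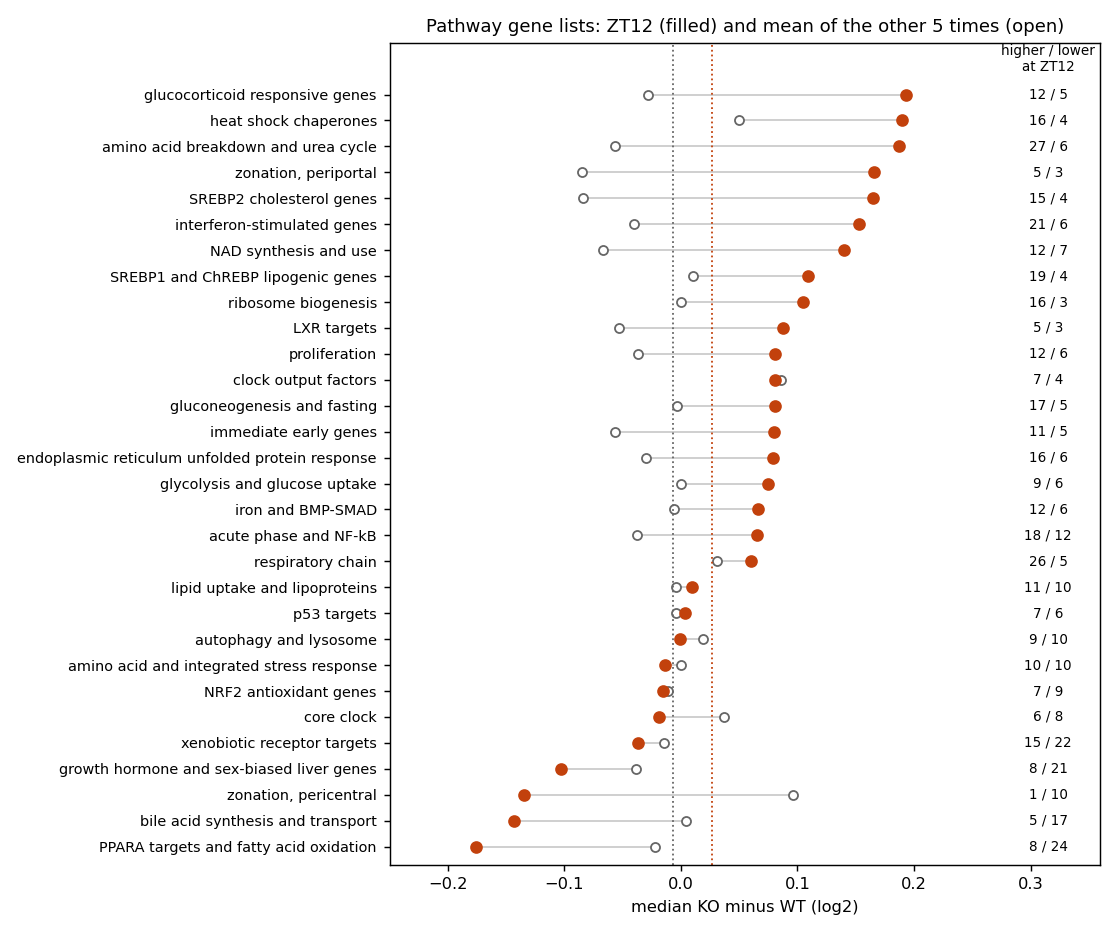
Median KO minus WT difference (log2, x axis) of the pathway gene lists with 8 or more tested members (cell type marker lists are not drawn) at ZT12 (filled) and as the mean of the other 5 times (open), with the number of members of higher and lower mean at ZT12 at the right; dotted lines give the medians over all 13308 genes. Glucocorticoid responsive genes (0.19), heat shock chaperones (0.19), amino acid breakdown (0.19), periportal genes (0.17) and SREBP2 genes (0.17) are the highest of the lists drawn. PPARA targets (−0.18) are the lowest.

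The clock itself passed the test in 0 of 14 measured core genes. Of these, 6 had a higher and 8 a lower mean in KO, with a median of −0.02 (0.07 without KO replicate 1). Arntl (Bmal1), the activator that drives the clock, was the 1 with unadjusted p under 0.05. It read 6.25, 6.43 and 5.92 in WT and 7.53, 6.63 and 6.61 in KO livers (0.72 ± 0.28, or 1.65-fold, adjusted p = 0.397). Every KO value lay above every WT value, KO replicate 1 by far the most; without it the difference was 0.42 (adjusted p = 0.621). Arntl was near its daily low at this time: WT livers read 5.86 ± 0.22 (SD, n = 3) at ZT8 and 8.60 ± 0.30 at ZT16, and KO livers 5.43 ± 0.25 and 8.56 ± 0.49.

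Nr1d1 (REV-ERB alpha), a repressor of Arntl that was falling at this time, read 9.16, 9.45 and 9.07 in WT and 9.23, 8.66 and 8.75 in KO (−0.35 ± 0.24, adjusted p = 0.696), and its groups overlapped. The repressors Cry1 (0.28 ± 0.16), Per1 (0.19 ± 0.27), Cry2 (0.16 ± 0.14) and Per3 (−0.04 ± 0.25) overlapped too, as did the activators Clock (−0.11 ± 0.11) and Npas2 (−0.16 ± 0.28). The cell cycle kinase Wee1, a clock output, read 8.94, 8.99 and 9.25 in WT and 8.92, 8.37 and 8.47 in KO, without overlap (−0.47 ± 0.26, adjusted p = 0.578).

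REV-ERB and ROR receptors are known to bind AGGTCA sites in the Arntl promoter, and the window of its second annotated start (RefSeq, GRCm38.p6, chr7:113207261-113207560, + strand) is printed for that reason with its AGGTCA match in capitals.
Arntl: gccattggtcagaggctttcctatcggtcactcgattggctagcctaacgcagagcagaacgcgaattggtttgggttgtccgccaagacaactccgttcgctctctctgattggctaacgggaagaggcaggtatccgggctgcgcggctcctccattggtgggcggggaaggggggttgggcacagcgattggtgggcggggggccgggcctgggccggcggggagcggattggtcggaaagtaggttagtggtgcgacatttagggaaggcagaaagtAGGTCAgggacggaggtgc
The match starts at base 282 of the 300 printed, after the start site, and the window of the first annotated start holds 0 matches. AGGTCA is found on either strand in 16.26% of 32851 promoters, and in 15.88% of the higher, 17.59% of the lower and 15.58% of all tested genes with an entry.

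**Figure D3:**
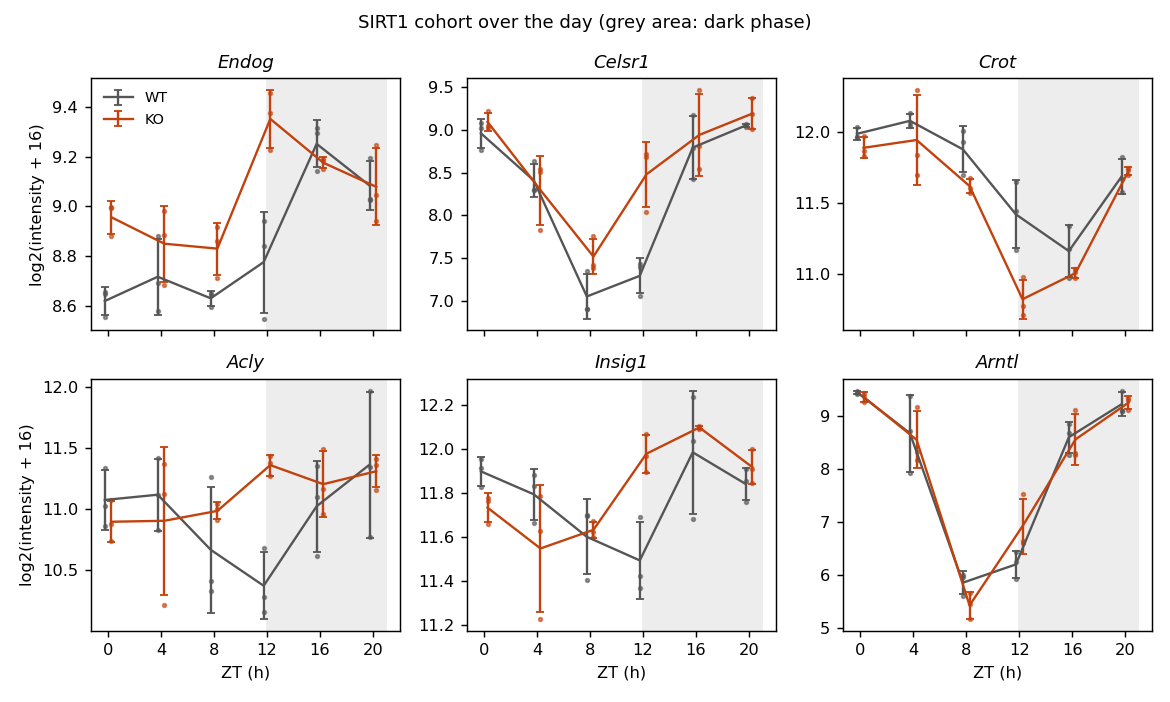
Levels of 6 genes over the day in WT (grey) and SIRT1 KO (orange) livers, as log2(intensity + 16) against ZT in hours; lines join group means, bars are SD (n = 3), dots are single arrays and the grey area is the dark phase. At ZT12 the KO values of Endog, Celsr1, Acly, Insig1 and Arntl lie above those of WT and the KO values of Crot below.

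The differences at lights off were set against the genes' own course through the evening. Genes were chosen on their change from ZT8 to ZT16 in WT livers (adjusted p under 0.05 in a limma fit without the ZT12 arrays), so the 6 arrays compared played no part in the choice. This comparison was added with the ZT12 values known and carries no test. Of 458 genes that rose from ZT8 to ZT16 in WT, 379 (82.75%) had a higher mean in KO at ZT12, against 56.8% of all genes, with a median difference of 0.14. Of 241 that fell, 165 (68.46%) had a lower mean in KO, against 43.2% of all genes, with a median of −0.07. Without KO replicate 1 these medians were 0.08 and −0.05. Of the risers 112 (24.5%) were higher with unadjusted p under 0.05 and 6 lower, where 6.35% of all genes were higher. Of the fallers 38 (15.8%) were lower and 7 higher, where 3.13% of all genes were lower.

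The mean of the rising genes minus that of the falling genes gives each liver a score. At ZT12 it was −0.32, −0.37 and −0.52 in WT livers and 0.02, −0.20 and −0.24 in KO livers. All 3 KO livers thus scored above the WT livers, on the side of the ZT16 score, KO replicate 1 the furthest. The score does not mark a single time of day. WT livers read −0.47, −0.45 and −0.54 at ZT4, overlapping WT at ZT12, and 0.14, −0.03 and −0.07 at ZT0. In WT the same measure was −0.68, −0.96 and −0.96 at ZT8 and 0.41, 0.45 and 0.24 at ZT16, levels that the choice of genes sets in part. At ZT8 the KO livers read −0.74, −0.80 and −0.96 and at ZT16 0.31, 0.42 and 0.38, within the range of WT for this choice of genes.

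Genes chosen instead on the KO livers gave 84.67% of 535 risers higher and 68.19% of 767 fallers lower. By that choice the livers at ZT12 read −0.59, −0.62 and −0.74 in WT and −0.27, −0.45 and −0.47 in KO, again without overlap. At ZT8 WT livers then read −0.67 to −1.02 and KO livers −1.02 to −1.21, and at ZT16 −0.10 to 0.07 and 0.05 to 0.19, so the likeness of the groups at these times depends on the choice of genes. After quantile normalization the WT-chosen shares were 78.56% of 499 and 72.05% of 458. Of the 20 genes of smallest p, 19 differed at ZT12 in the direction of their WT change from ZT8 to ZT16; Dct did not. In WT, 5 of the 20 passed as rising and 3 as falling over that interval, and the other genes had no called change. The 2 signs were the same for 78.83% of the 1261 genes with unadjusted p under 0.05 and for 62.07% of all genes.

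**Figure D4:**
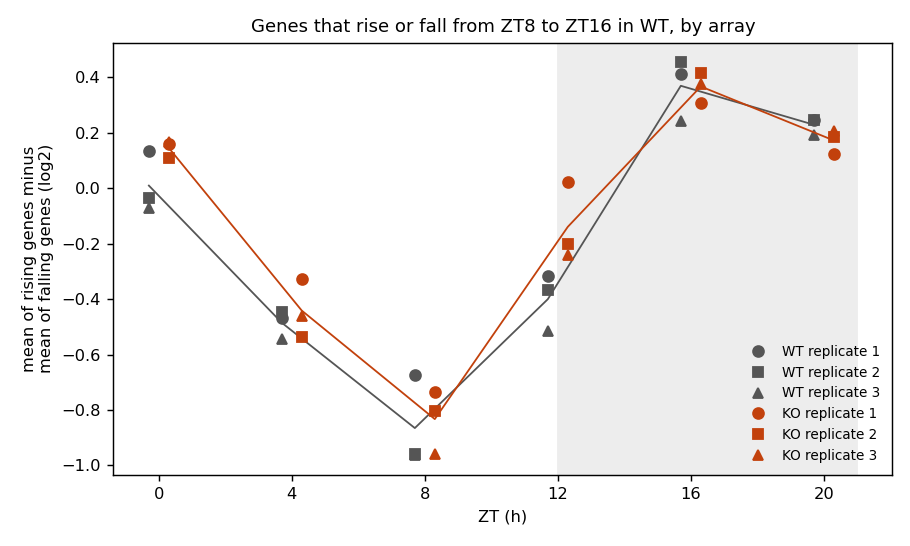
Mean log2(intensity + 16) of the genes that rose from ZT8 to ZT16 in WT minus that of the genes that fell (y axis), for each array of the SIRT1 cohort against ZT in hours; grey is WT, orange KO, shapes are replicates and lines join group means. At ZT12 the KO arrays (−0.24 to 0.02) lie above the WT arrays (−0.52 to −0.32).

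Tested 1 time at a time, the cohort had 0 called genes at ZT0, 4, 8 and 16 and 1 (0.00751%) at ZT20, and the mean over these 5 other times had 293 (2.2%). Whether the differences were particular to ZT12 was tested as the difference from the mean of the other 5 times. In this test 0 genes passed (limma adjusted p under 0.05), and 1279 (9.61%) had unadjusted p under 0.05. The smallest p among genes of larger difference at ZT12 belonged to Pde9a (0.60 above the other times), the dehydrogenase family gene Aspdh (0.44), the spindle orientation gene Insc (1.16) and Ebp (0.38), each with adjusted p = 0.161. On the lower side they belonged to Ssh2 (−0.62), Trim24 (−0.45), Slc6a16 (−0.93) and Adh4 (−0.52). In Pde9a the KO mean was below WT at ZT8 by 0.52 and above it at ZT12. In Aspdh the KO mean was lower at each of the other 5 times, by 0.17 on average.

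Against the SIRT6 cohort at ZT12, where 9 genes passed (0.0676%), the difference between both knockout effects passed in 2 genes (0.015%), with 4.45% at unadjusted p under 0.05. Neither was among the 2 genes called for SIRT1, and both were kept by the filter on dim genes only through the SIRT6 cohort. Strain and knocked-out gene cannot be told apart here. Endog differed by 0.57 under SIRT1 knockout and 0.02 under SIRT6 knockout, and Celsr1 by 1.18 and 0.55, and neither difference of effects passed (adjusted p = 0.712 and 0.989).

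The count of called genes depended most on KO replicate 1. With KO replicate 1 left out, 32 genes (0.24%) passed as higher and 37 (0.278%) as lower, and 54 passed for a difference from the other times. KO replicate 1 lay on the same side of the WT range as the other KO livers in 23 of the 32 and 15 of the 37, inside the range in 8 and 11, and on the opposite side in 1 and 11. Leaving this array out favours genes in which it stood apart, so these positions follow in part from the choice. Over all genes its mean correlation with the other 2 KO arrays was 0.978, against 0.981 and 0.982 for replicates 2 and 3. The genes named from here on were chosen after their values were seen. Cyp17a1, an enzyme of steroid synthesis, read 7.38, 7.69 and 7.76 in WT and 8.42, 11.10 and 10.39 in KO livers. The trefoil peptide Tff3 read 7.37, 7.58 and 7.45 in WT and 7.33, 9.79 and 10.13 in KO, and the mitochondrial folate enzyme Mthfd1l 6.45, 7.11 and 6.99 against 7.37, 8.98 and 8.73. Replicates 2 and 3 were high in all 3 genes, and replicate 1 was at WT level in Tff3.

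On the lower side, the hepatocyte glucose transporter Slc2a2 read 11.61, 11.78 and 11.77 in WT and 11.77, 10.23 and 10.61 in KO livers. The arrestin family gene Arrdc3 read 9.57, 10.11 and 10.06 against 10.42, 8.02 and 8.07. Rgs16, a regulator of G protein signalling, read 8.10, 9.63 and 10.50 against 9.83, 6.29 and 6.13. In these genes replicate 1 stood with or above the WT livers, more than 1 unit above the other KO livers.

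The 37 lower genes included 2 of the 12 sinusoidal endothelial markers, Clec4g and Fcgr2b. Clec4g read 11.22, 10.94 and 10.98 in WT and 11.29, 10.48 and 10.11 in KO, replicate 1 being the highest array and replicate 3 the lowest. The summed endothelial markers followed the same order in KO livers, from 10309 down to 5652, and their part in these results was not tested.

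**Figure D5:**
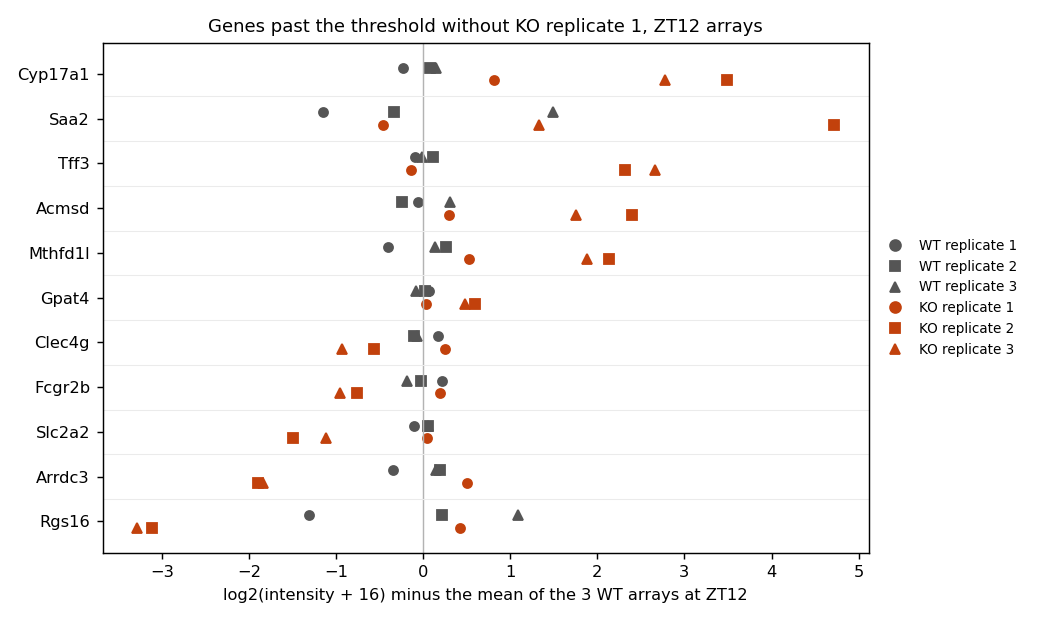
Values of the 6 arrays at ZT12, as log2(intensity + 16) minus the WT mean (x axis), for 11 of the 69 genes that passed without KO replicate 1, picked after their values were seen; grey is WT, orange KO, and shapes are replicates. KO replicate 1 (orange circle) lies nearer to WT than KO replicates 2 and 3 in most of these genes, but outside the WT range and on the same side in Cyp17a1 and Mthfd1l. Choosing genes without this array favours such a position.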

How the data were processed

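The deposited series matrix holds 41345 probe set intensity values per array on a linear scale. Per the submitters' processing notes the authors used Affymetrix Expression Console 1.1.1 and PLIER 2.0; normalization settings and build were not given in the sources used here. Kept were 23521 probe sets with 1 gene symbol; 1814 had several and 16010 none. The brightest per gene over 72 arrays was used, as log2(intensity + 16), and the lowest 40% of genes (mean under 6.00) were left out, which kept 13308 of 22180.

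limma 3.58.1 (R 4.3.3) was fitted to 12 group means over the 36 arrays of the cohort, with a trend; Benjamini-Hochberg adjustment ran over genes within a contrast. The cohorts were compared in a fit of all 72 arrays. The steps were tested on simulated data. The number of arrays limits the precision.

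Named were the sirtuins, the core clock, the 10 genes of smallest p in each direction, up to 4 genes of smallest p in each list, and 4 in each direction for the difference from other times; predicted genes were counted but passed over. Exceptions, named after their values were seen, were Ppara, Cpt1a, Hmgcs1, Cyp7a1, Cyp2a4, Acot3, Cyp2b9, Asns, Nuggc, Apba2 and the genes of the comparison without KO replicate 1. Members and lists were chosen with earlier results of these data known. Alternatives covered normalization, pseudocount, filter, samples in the fit, replicate block, array weights, trend, probe sets, correction and each array left out.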

Additional observations from a re-analysis of the deposited data

Results flagged for a closer look

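The difference between the SIRT1 and SIRT6 knockout effects at ZT12 passed the test in 2 genes, in 1 fit of 72 arrays. For Nuggc, a nuclear GTPase of germinal centre B cells, the difference was −1.72 (SIRT1 cohort −0.11, SIRT6 cohort 1.61, limma adjusted p = 0.0137). For Apba2, an adaptor protein of neurons, it was −2.06 (SIRT1 cohort 0.17, SIRT6 cohort 2.23, limma adjusted p = 0.0294). In the SIRT1 cohort the ZT12 means of both genes were at most 5.81, under the 6.00 of the filter on dim genes. Their SIRT1 cohort means were under 6.00 at the other times too. The filter used the mean over all 72 arrays, so both genes were kept only through the SIRT6 cohort. The SIRT1 side of the difference was thus read on values under the filter. Strain and knocked-out gene cannot be told apart.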

How the results depend on the processing

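The count of 2 genes at ZT12 became 0 after quantile normalization, with the 6 arrays at ZT12 alone and with 1 correction over all genes and times; 1 with a pseudocount of 64; 6 with the lowest 60% left out; and 10 with array weights. With each array left out it ran from 0 to 69, the 69 without KO replicate 1. The replicate block gave 4 (2 higher, 2 lower). At ZT12, same-numbered samples deviated from their group means with correlations of −0.03, −0.23 and −0.28. These values gave no sign of a pairing by number, but 3 arrays per group cannot exclude it. Genes differing from the other times numbered 0, but 8 with array weights and 0 to 54 with each array left out; genes differing between the knockouts numbered 2, or 6 after quantile normalization, and 2 with the block.

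Endog ranged from 0.46 to 0.65 and passed in 12 of 18 settings, Celsr1 from 0.98 to 1.40 in 10 of 18. The 10 named genes of smallest p in each direction kept their direction in every setting that held them (18 of the 20 with the lowest 60% left out). Where the groups did not overlap, leaving out 1 array could not reverse the direction. Over the named genes, 23 values reversed, 14 lost and 35 gained the threshold and 2898 did neither. The reversals were all of genes that did not pass. After quantile normalization Sirt1 read −0.0042 and Sirt7 −0.0191; with array weights Per3 read 0.0058, Rora 0.0109 and Rian 0.0799. With each array left out, Sirt1 ran from −0.0108 to 0.0625, Sirt2 from −0.0130 to 0.2377, Sirt4 from −0.0584 to 0.1553, Sirt6 from −0.2453 to 0.0262, Sirt7 from −0.0027 to 0.0563, Clock from −0.2461 to 0.0420, Per3 from −0.1445 to 0.0652, Nr1d2 from −0.2081 to 0.0425, Rora from −0.0470 to 0.0673, Ciart from −0.0046 to 0.2417, Csnk1e from −0.1645 to 0.0739, Cirbp from −0.0269 to 0.1660, Lcn2 from −0.0687 to 1.2798 and Rian from −0.5620 to 0.3643. The cause was not tested.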

Other observations

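Asparagine synthetase, Asns, fell by 2.38 ± 0.37 (SE, log2) in KO livers as the mean of the other 5 times (limma adjusted p = 0.00184), with differences of −2.09 to −2.83 at the single times, while at ZT12 the difference was 0.13 ± 0.82. At ZT12 KO replicate 1 read 4.92 and KO replicates 2 and 3 read 9.29 and 8.20, against 6.12 to 8.06 in WT. The difference between ZT12 and the other times did not pass the test (limma adjusted p = 0.351).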
